A study of Mus musculus with 6 samples.

Results

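The genes described here are the translation initiation and elongation factors of mouse muscle satellite cells, which are the stem cells that rebuild skeletal muscle. The choice was by name: every gene whose symbol in the platform annotation begins with Eif1 to Eif6 or with Eef1 or Eef2, the Eif2ak kinases left out, and whose probe set on the array was assigned to that gene alone. The rule found 57 of the 19938 genes measured, and used no expression value. The 57 genes had 67 such probe sets. For the 8 genes with more than 1, the brightest by its 6-array mean stands for the gene. Eif1, Eif2s1, Eif3g, Eif3j1, Eif3j2, Eif4g1, Eif4ebp3 and Eef1g had no such probe set and are not analysed here.

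Expression was measured on 3 arrays of cultured and 3 arrays of freshly sorted satellite cells. The cells of both groups came from hind limb, abdominal and triceps muscle of C57BL/6J mice aged 2 months, and no allele or drug is given for either group. Cultured cells were kept for 5 days on collagen and laminin in F10 medium with 20% horse serum, with bFGF added daily at 5 ng/ml. The labels carry this culture protocol on both groups, and the groups were taken from the sample labels. The labels do not say how many mice stand behind an array, nor that the 3 arrays of a group came from separate sorts or cultures, so the p-values below measure the spread between these arrays, which may be technical.

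Translation begins when the small ribosomal subunit, carrying initiation factors and the initiator tRNA delivered by eIF2, is recruited to the capped end of an mRNA and scans to a start codon. eIF4E binds the cap, eIF4G bridges it to the ribosome, the helicase eIF4A unwinds the leader, and the many-subunit eIF3 holds the complex together. eEF1A then brings aminoacyl-tRNAs to the ribosome and eEF2 moves it along the mRNA. Muscle stem cells at rest are known for a low rate of protein synthesis, held down in part by phosphorylation of eIF2α, and dissociating and sorting the tissue is known to start their activation. Transcript levels say nothing of that phosphorylation.

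The deposited values are log2 RMA values, and the bright end of the scale differed between arrays. The 95th percentile over all probe sets was 7.37, 6.42 and 6.71 on cultured replicates 1, 2 and 3, against 7.38, 7.45 and 7.43 on the 3 fresh arrays, while all 6 array medians lay between 3.098 and 3.152. Cultured replicates 2 and 3 were thus dim among their bright values, and each result is given on the deposited values and again after quantile normalization, which gives all arrays 1 distribution. Olfactory and vomeronasal receptor genes, 1194 in all, set the background at their 95th percentile, 3.23 in cultured and 3.16 in fresh cells. All 10 measured satellite cell markers were above it in both groups, and 6 fell in culture on both scales, Pax7 and Myf5 among them. Myod1, Itgb1, Cdh15 and Itga7 did not pass the test (limma, adjusted p under 0.05). Of 6 markers of differentiating muscle, 4 rose in culture and 1 fell on both scales. Among all genes 3.37% fell and 0.953% rose on the deposited values, and 4.5% and 3.5% did so after quantile normalization. The summed log2 level of those 6 was 36.6, 37.9 and 48.0 on the cultured arrays, against 28.3 to 29.0 on the fresh arrays. Endothelial markers were within background for 5 of 5 genes in cultured and 4 of 5 in fresh cells, and immune markers for 5 of 6 in cultured and 4 of 6 in fresh cells. The summed level of 5 fibro-adipogenic markers was 15.8 to 16.2 in cultured and 25.2 to 28.6 in fresh cells. Of 5 tendon markers none passed on the deposited values, and after normalization Scx rose (1.19, adjusted p = 0.00453) and none fell. The summed deposited level of the 5 was 18.43, 18.67 and 19.03 on the cultured arrays, against 25.23, 17.93 and 16.03 on the fresh arrays, with fresh replicate 1 apart. Of 5 smooth muscle and pericyte markers none passed on the deposited values, and after normalization Acta2 rose (1.70, adjusted p = 0.0150) and none fell. Of 5 mast cell and basophil markers 4 were within background in cultured cells and all 5 in fresh cells, while Mcpt8 rose by 3.09 (adjusted p = 0.00359). What these shifts in cell makeup contribute to the factor levels was not tested. In RNA from many cells, a lower level in every cell and fewer cells with the transcript cannot be told apart.

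Most initiation and elongation factors were expressed in both groups, and few passed the test between them. Of the 57 genes, 54 had a mean above background in at least 1 group. On the deposited values 4 factors fell in culture, Eif4a2, Eif1a, Eif3h and Eif4ebp1, and none rose (limma, adjusted p under 0.05). Among all 19938 genes 3.37% fell and 0.953% rose, against 7.02% and none of the factors. At an unadjusted p under 0.05 the factors lower in culture numbered 17 and the higher ones 0, against 17.6% of all genes in either direction. After quantile normalization 6 factors fell, Eif4a2, Eif1a, Eif3h, Eif5, Eif3f and Eif2s3y, and 2 rose, Eif3d and Eif4e2. The all-gene shares were then 4.5% lower and 3.5% higher. Eif4a2, Eif1a and Eif3h passed on both scales, and 48 factors passed on neither.

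The size of the shift depended on the scale. The median log2 fold change of the 57 factors, cultured minus fresh, was -0.53 on the deposited values, where the median of all genes was 0.04, and -0.05 after quantile normalization, where it was 0.03. A fold change below 0 was found for 36 factors on the deposited values (63.2%, against 43.4% of all genes) and for 31 after normalization (54.4%, against 45.8%). At least 2-fold lower were 15 factors on the deposited values (26.3%, against 4.42% of genes), and 4 after normalization (7.02%, against 3.19%). No factor was 2-fold higher on either scale, against 1.12% and 1.96% of genes. All 3 cultured arrays lay below all 3 fresh arrays for 13 factors and above them for 4 on the deposited values, where 10.3% and 12.9% of all genes did so. After normalization the counts were 9 and 9, against 11.5% and 13.4% of genes. The fold changes of 9 factors had opposite signs on the 2 scales.

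**Figure D1:**
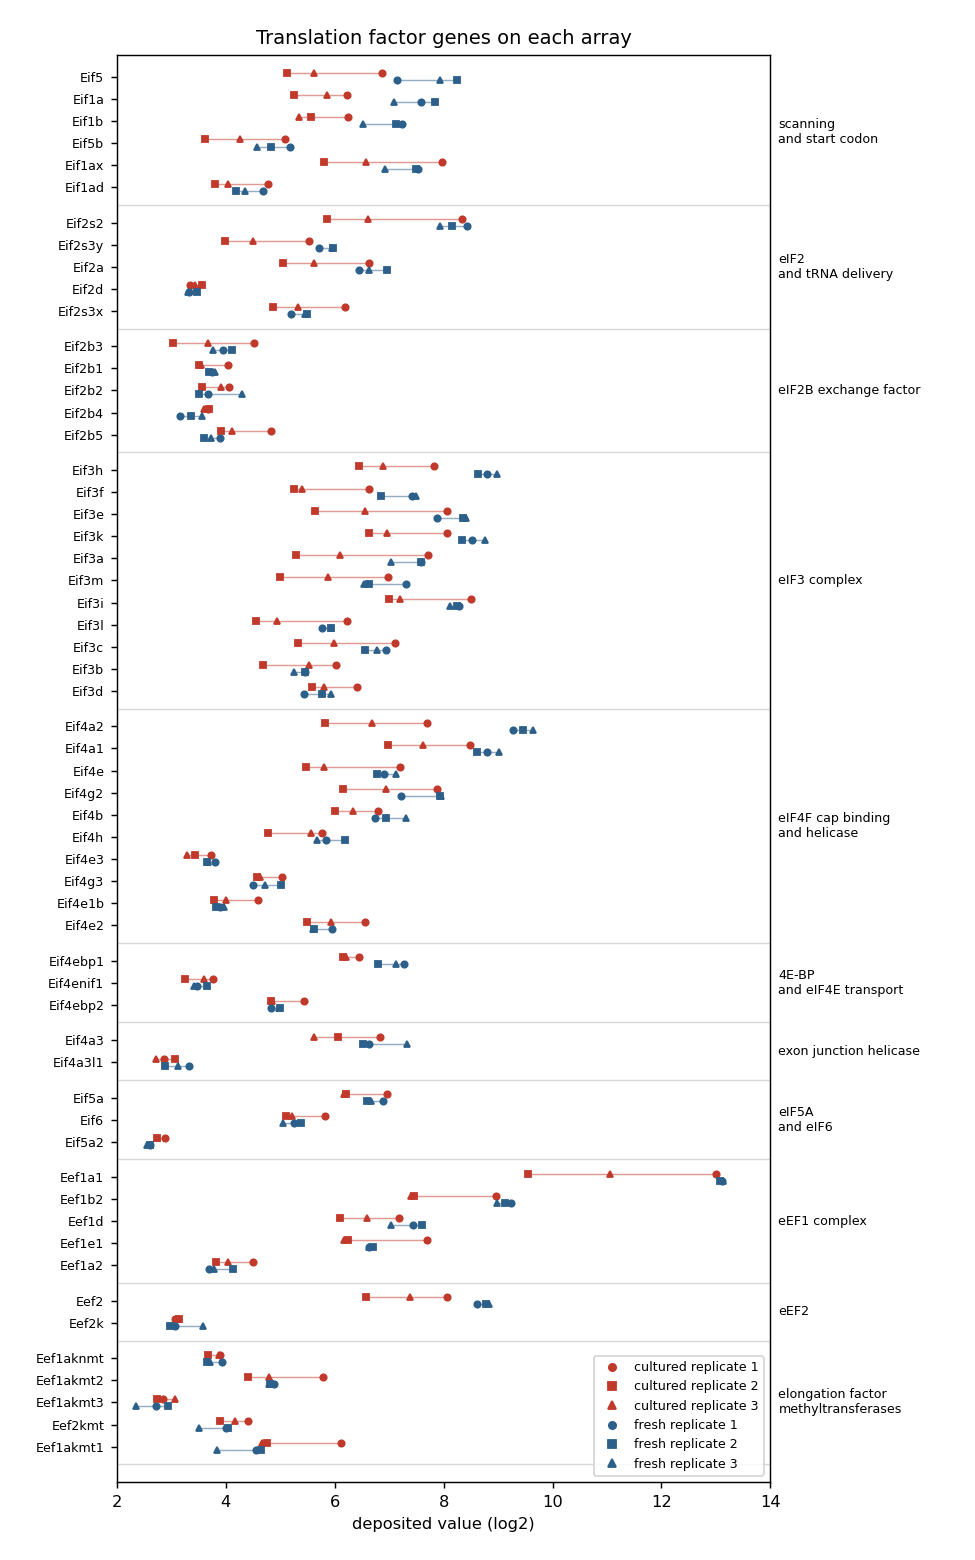
Deposited log2 values of the 57 factors on each array, grouped by role, with cultured arrays in red above fresh arrays in blue, 1 marker shape per replicate number and a line over the range of each group. Cultured replicate 1 lies mostly near the fresh arrays and replicates 2 and 3 mostly to their left, while the 3 cultured symbols of Eif4a2 lie at 5.82 to 7.69, below the fresh symbols at 9.27 to 9.65.

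The spread among the cultured arrays ran through the whole set. Cultured replicate 1 was the brightest of the 3 cultured arrays for 52 of 57 factors, as it was for 41.9% of all genes, and cultured replicate 2 was the dimmest for 46, against 45.4% of genes. Relative to the mean of the fresh arrays, the factors had a median of 0.22 on cultured replicate 1, -0.91 on replicate 2 and -0.55 on replicate 3. The medians of all genes were 0.05, 0.004 and 0.03. After quantile normalization the 3 factor medians were 0.15, -0.22 and -0.02, and cultured replicate 1 was still the brightest for 38 factors, against 31.9% of genes. Replicate 1 thus lay slightly above the fresh mean and replicate 2 furthest below it on both scales.

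The shift also followed brightness. The 22 factors with a mean over the 6 arrays between 6 and 8 had a median fold change of -0.83 on the deposited values, and the 742 genes of that brightness had -0.55. For the 5 factors above 8 it was -1.41, against -0.98 for 236 genes. The 16 factors between 4 and 6 had 0.09, against 0.02 for 4691 genes. After quantile normalization those 16 had 0.25, against 0.10 for their genes, the 22 factors between 6 and 8 had -0.29, against 0.12 for their genes, and the 5 above 8 had -0.25, against 0.16. Above a mean of 6, genes of like brightness were thus also below 0 on the deposited values, and above 0 after normalization.

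**Figure D2:**
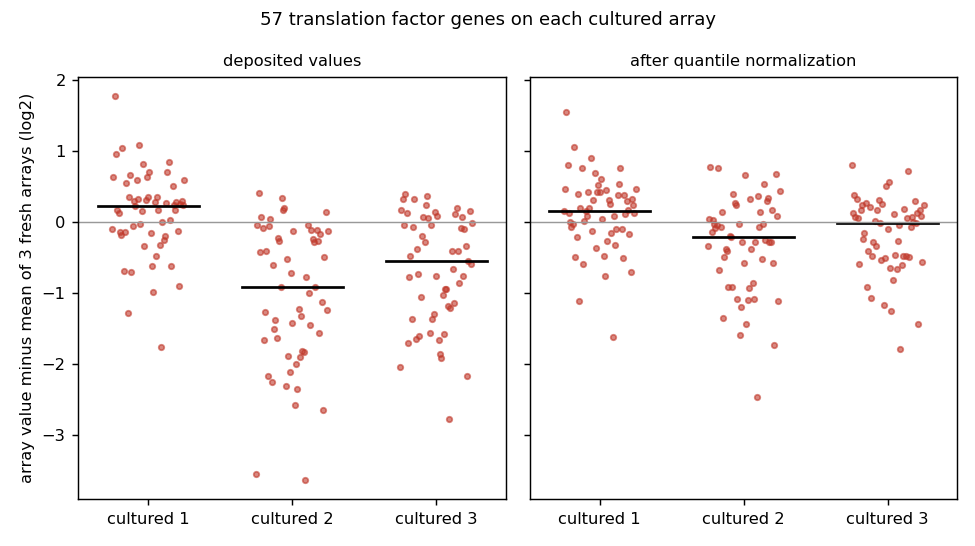
Value of each of the 57 factors on each cultured array minus its mean over the 3 fresh arrays (log2), on the deposited values and after quantile normalization, with 1 point per factor and a bar at the median. The deposited medians are 0.22, -0.91 and -0.55 for cultured replicates 1, 2 and 3, and the normalized ones 0.15, -0.22 and -0.02.

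The factor with the largest fold change among the 57 was Eif4a2, one of the 2 paralogous eIF4A helicases that unwind mRNA leaders. Its log2 level was 7.69, 5.82 and 6.69 on the cultured arrays, against 9.27, 9.45 and 9.65 on the fresh arrays. All 3 cultured arrays lay more than 1 log2 unit below every fresh array, and cultured replicate 1, the closest, was also the brightest cultured array for most other factors. The fold change was -2.73 ± 0.41 on the log2 scale (SE, n = 3 each, adjusted p = 0.00968), or 6.61-fold lower, with a 95% interval between -3.68 and -1.77. After quantile normalization it was -1.96 (adjusted p = 0.000889). The call was lost without cultured replicate 3 (adjusted p = 0.0563), fresh replicate 2 (0.0524) or fresh replicate 3 (0.0588), with the direction kept.

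Eif4a1, the paralogue with the same helicase activity, had a smaller difference. Its level was 8.48, 6.97 and 7.62 in cultured cells, against 8.80, 8.61 and 9.02 in fresh cells. The groups did not overlap, cultured replicate 1 lay just under the lowest fresh array, and the difference of -1.12 ± 0.35 did not pass the test (adjusted p = 0.138). Its other probe sets gave -1.26 and -1.09, and after quantile normalization the groups overlapped at -0.16. Within an array, the ratio of Eif4a2 to Eif4a1, set to 0 at its mean over the fresh arrays, was -1.44, -1.80 and -1.59 on the cultured arrays, against -0.17, 0.20 and -0.02 on the fresh arrays. The 3 cultured ratios lay close together although the levels behind them spread over more than 1 log2 unit. The difference of the ratio was -1.61 on the deposited values and -1.80 after normalization, without overlap on either. With 3 arrays against 3, the exact two-sided permutation p was 0.1, the smallest this design allows, and 0.133 on the deposited and 0.2 on the normalized values after adjustment over the 8 pairs of related factors compared, a set of pairs chosen with these levels known.

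The sequences just upstream of the 2 helicase genes are shown because the paralogues are near in function and their fold changes were -2.73 and -1.12. Each run holds the 250 bases before the annotated start (RefSeq, GRCm38.p6), read 5′ to 3′ on the gene's strand, with the E-box CACGTG in capitals.
Eif4a2, chr16:23107218-23107467, plus strand: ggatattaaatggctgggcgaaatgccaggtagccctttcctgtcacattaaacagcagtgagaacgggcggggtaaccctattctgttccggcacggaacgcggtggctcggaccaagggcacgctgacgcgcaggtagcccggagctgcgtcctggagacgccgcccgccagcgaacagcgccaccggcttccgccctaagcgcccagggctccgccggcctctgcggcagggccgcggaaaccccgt
Eif4a1, chr11:69672424-69672673, minus strand: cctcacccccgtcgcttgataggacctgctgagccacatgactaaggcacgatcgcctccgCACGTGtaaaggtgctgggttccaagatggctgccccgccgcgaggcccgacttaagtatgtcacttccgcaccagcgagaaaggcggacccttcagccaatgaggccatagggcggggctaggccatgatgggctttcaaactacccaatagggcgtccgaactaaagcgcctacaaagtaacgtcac
The Eif4a1 window held 1 E-box, whose first base lies 189 bases before the start. The Eif4a2 window held neither an E-box nor the AP-1 element TGANTCA nor the cAMP response element TGACGTCA.

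The cap-binding proteins and scaffolds showed no call on the deposited values. Eif4e, the cap-binding subunit of eIF4F, had 7.21, 5.48 and 5.80 in cultured cells, against 6.91, 6.78 and 7.12 in fresh cells. Cultured replicate 1 exceeded all fresh arrays and replicates 2 and 3 lay below them, and the difference was -0.77 (adjusted p = 0.383). In its other probe sets, with deposited differences of -1.11 and -0.74, all 3 cultured arrays lay below all fresh arrays, and Eif4e passed when the probe sets of a gene were averaged. Eif4e2 encodes the related cap-binding protein 4EHP, which represses rather than drives translation. Its deposited level was 6.56, 5.48 and 5.92 in cultured cells, against 5.95, 5.61 and 5.59 in fresh cells, an overlapping set with a difference of 0.27 (adjusted p = 0.674). After quantile normalization it was 6.33, 6.10 and 6.29 in cultured cells, against 5.83, 5.42 and 5.43 in fresh cells, a rise of 0.68 (adjusted p = 0.0362). That call was lost without cultured replicate 1 (0.63, adjusted p = 0.0778). The within-array ratio of Eif4e2 to the brightest Eif4e probe set was higher in cultured cells by 1.04 on the deposited and 0.88 on the normalized values. The groups did not overlap (exact permutation p = 0.1 on each, 0.133 and 0.2 after adjustment over the 8 pairs). Ratios to the other Eif4e probe sets were not computed.

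Of the 10 measured genes of the eIF4F group, 1 fell on the deposited values, 7 had a fold change below 0 and the median was -0.58. Among all genes 3.37% fell and 43.4% were below 0. After quantile normalization Eif4a2 fell, Eif4e2 rose, 5 were below 0 and the median was -0.04. The all-gene shares on that scale were 4.5% lower, 3.5% higher and 45.8% below 0. The scaffold genes Eif4g2 and Eif4g3 had fold changes of -0.72 and 0.002, with overlapping groups.

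Among the proteins that bind eIF4E, Eif4ebp1 fell on the deposited values. 4E-BP1 blocks eIF4G from eIF4E until mTORC1 phosphorylates it. Its level was 6.45, 6.15 and 6.21 in cultured cells, against 7.28, 6.79 and 7.13 in fresh cells. Here cultured replicate 1 lay within 0.3 of the other cultured arrays, unlike in most factors. The change was -0.80 ± 0.17 (n = 3 each, adjusted p = 0.0457). After quantile normalization the arrays read 6.21, 7.02 and 6.66 in cultured cells, against 6.91, 6.48 and 6.78 in fresh cells, and the groups overlapped (-0.10, adjusted p = 0.865). The call was also lost without cultured replicate 2 (adjusted p = 0.0999) or 3 (0.176) and without fresh replicate 1 (0.129) or 3 (0.161). Eif4ebp2, the paralogue, differed by 0.11 (adjusted p = 0.830), and the ratio of Eif4ebp1 to Eif4ebp2 by -0.90 without overlap on the deposited values and by -0.36 with overlap after normalization.

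**Figure D3:**
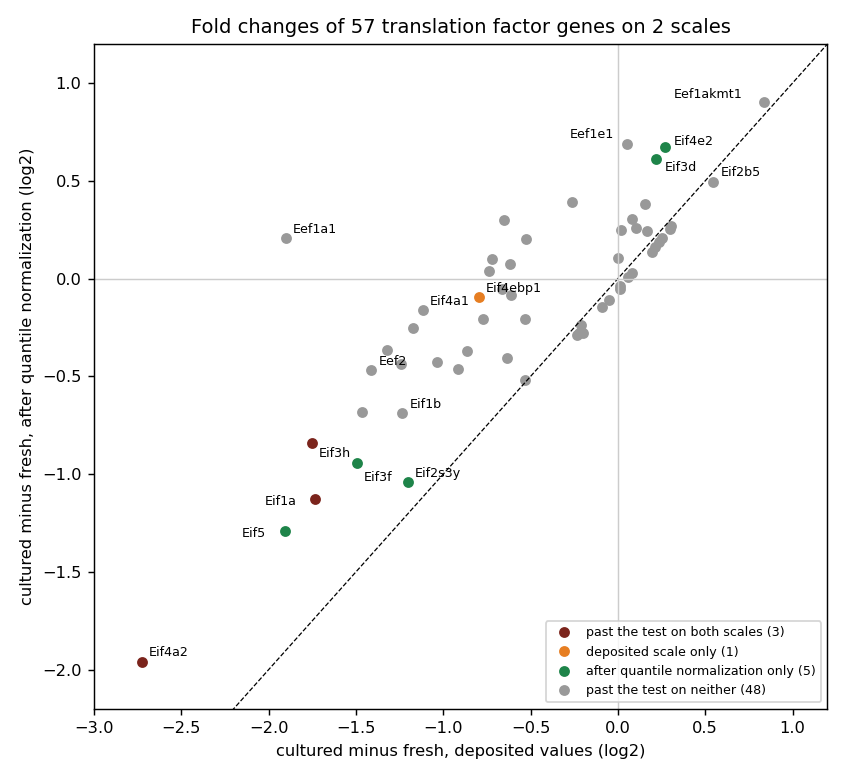
Log2 fold change, cultured minus fresh, of the 57 factors on the deposited values (horizontal) and after quantile normalization (vertical), with colour for the scale on which a factor passed the test at an adjusted p of 0.05 and a dashed line where both fold changes are equal. Eif4a2, Eif1a and Eif3h pass on both, Eif4ebp1 on the deposited values alone, 5 factors after normalization alone and 48 on neither.

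The factors that scan for and recognise the start codon were all below 0 on the deposited values. Of 6 measured, 1 fell and the median fold change was -0.88, where 3.37% of all genes fell and 43.4% were below 0. After quantile normalization 2 fell and 5 were below 0, where 4.5% and 45.8% of all genes did so, and the median was -0.60. Eif1a encodes eIF1A, which with eIF1 keeps the scanning ribosome open. It had 6.22, 5.24 and 5.85 in cultured cells, against 7.59, 7.83 and 7.09 in fresh cells. Every cultured array lay below every fresh array, by 0.87 at the closest. The change was -1.73 ± 0.28 (n = 3 each, adjusted p = 0.0137), and -1.13 after normalization (adjusted p = 0.00903). It was lost without cultured replicate 3 (adjusted p = 0.0646), fresh replicate 1 (0.0575) or fresh replicate 2 (0.0683).

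Eif5 encodes the protein that triggers GTP hydrolysis by eIF2 at the start codon. Its level was 6.87, 5.13 and 5.61 in cultured cells, against 7.15, 8.24 and 7.94 in fresh cells. The groups did not overlap, but cultured replicate 1 and fresh replicate 1 lay within 0.28 of each other, and the difference of -1.91 ± 0.46 did not pass on the deposited values (adjusted p = 0.0650). After quantile normalization Eif5 fell by 1.29 (adjusted p = 0.0314). Eif1b, a paralogue of eIF1, had a difference of -1.24 (adjusted p = 0.0524) and did not overlap on either scale. Eif1ax, the X-linked copy of Eif1a, had a difference of -0.53 (adjusted p = 0.650) with overlap. The ratio of Eif1a to Eif1ax was -1.95, -0.75 and -0.92 on the cultured arrays relative to its fresh mean, against -0.13, 0.14 and -0.01 on the fresh arrays. Cultured replicate 1 had the lowest ratio, and the mean difference was -1.21 on the deposited and -1.33 on the normalized values (exact permutation p = 0.1 on each, 0.133 and 0.2 adjusted).

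The genes grouped here as eIF2 and tRNA delivery gave no call on the deposited values. eIF2 carries the initiator tRNA, and the group also holds Eif2a and Eif2d, whose proteins are not eIF2 subunits. Of its 5 measured genes 3 were below 0, against 43.4% of all genes, with a median of -0.91, the value of Eif2a. Eif2s3x and Eif2s3y are the X-linked and Y-linked genes of the eIF2 γ subunit. Eif2s3y had 5.53, 3.98 and 4.51 in cultured cells, against 5.71, 5.97 and 5.94 in fresh cells. The difference was -1.20 ± 0.35 on the deposited values (adjusted p = 0.119) and -1.04 after quantile normalization, where it passed (adjusted p = 0.0495). Eif2s3x had 6.19, 4.86 and 5.33 in cultured cells, against 5.19, 5.49 and 5.45 in fresh cells, a difference of 0.08 with overlap (adjusted p = 0.922). The ratio of Eif2s3y to Eif2s3x, relative to its fresh mean, was -1.15, -1.38 and -1.32 on the cultured arrays, against 0.03, -0.02 and -0.005 on the fresh arrays. Both groups of ratios were tight, and the difference was -1.28 on the deposited and -1.35 on the normalized values (exact permutation p = 0.1 on each, 0.133 and 0.2 adjusted). No sex is recorded here for either group. What the share of male cells contributes to the Y-linked Eif2s3y and to this ratio was not tested. Eif2s2, the β subunit, had a difference of -1.24 that did not pass (adjusted p = 0.295), and its other probe set gave -1.56.

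**Figure D4:**
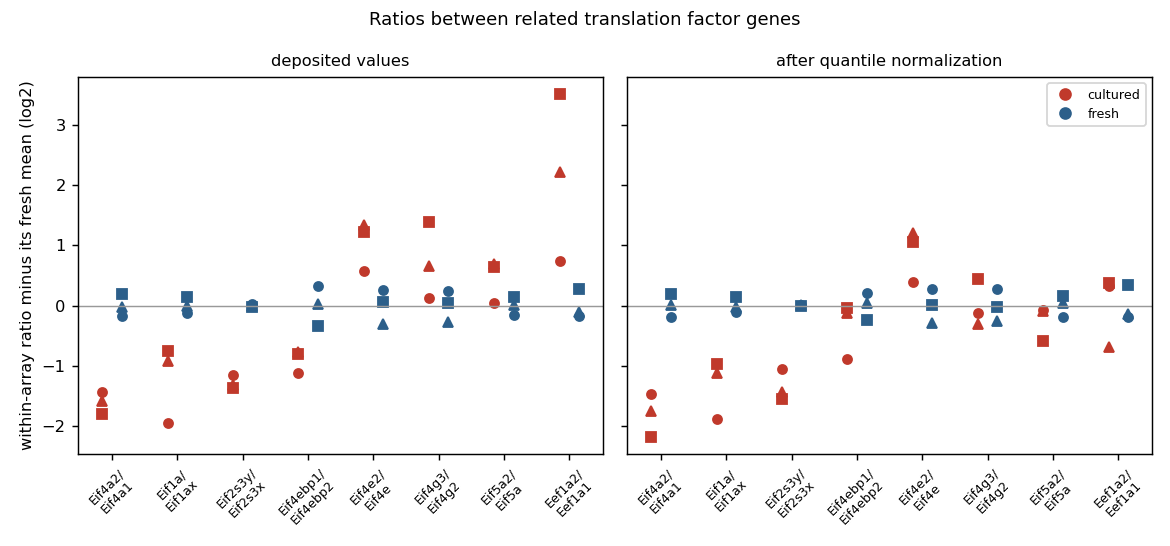
Log2 ratio of 8 pairs of related factors on each array, set to 0 at the mean of the fresh arrays, with red points for cultured and blue points for fresh arrays, on the deposited values and after quantile normalization. Cultured points lie apart from fresh points in 6 pairs on the deposited values and in 4 after normalization, and the Eef1a2 to Eef1a1 ratio, 2.15 higher in cultured cells on the deposited values, differs by 0.003 after normalization.

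The 5 subunits of eIF2B, which recharges eIF2 with GTP, stood near 0. None passed on either scale. On the deposited values 2 of 5 were below 0, against 43.4% of all genes, and the median was 0.01. Eif2b5, the catalytic subunit, had 4.83, 3.92 and 4.11 in cultured cells, against 3.90, 3.60 and 3.73 in fresh cells. The cultured arrays all lay above the fresh ones, with replicate 2 only just so, and the difference was 0.55 ± 0.24 (adjusted p = 0.297). Eif2b4 was the other eIF2B gene without overlap, at 3.67, 3.69 and 3.59 in cultured cells, against 3.15, 3.36 and 3.55 in fresh cells. Its levels were low in both groups, with a difference of 0.30 (adjusted p = 0.354).

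The eIF3 complex, the scaffold of the initiating ribosome, had 11 measured subunits, of which 1 fell and none rose on the deposited values. Of the 11 fold changes 9 were below 0 and the median was -0.87. Among all genes 3.37% fell and 43.4% were below 0, and genes with a mean between 6 and 8 had a median of -0.55. After quantile normalization 2 fell, Eif3h and Eif3f, 1 rose, Eif3d, and the median was -0.37, where 4.5% of all genes fell and 3.5% rose. Eif3h had 7.82, 6.44 and 6.89 in cultured cells, against 8.80, 8.63 and 8.97 in fresh cells. The groups lay 0.81 apart at the closest, and the change was -1.75 ± 0.32 (n = 3 each, adjusted p = 0.0235), or -0.84 after normalization (adjusted p = 0.00752). The call was lost without cultured replicate 3 (adjusted p = 0.116) and without fresh replicate 1 (0.0811), 2 (0.0779) or 3 (0.111).

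Eif3f, like Eif3h a subunit of the MPN-domain kind, had 6.63, 5.25 and 5.40 in cultured cells, against 7.42, 6.86 and 7.49 in fresh cells. Cultured replicate 1 lay 0.23 below the lowest fresh array. The difference was -1.50 ± 0.37 (adjusted p = 0.0693), and -0.95 after quantile normalization, where it passed (adjusted p = 0.0398). Eif3a, the largest subunit, had 7.71, 5.29 and 6.10 in cultured cells, against 7.58, 7.59 and 7.04 in fresh cells. Cultured replicate 1 was above every fresh array and replicate 2 more than 1 log2 unit below them, and the difference of -1.04 did not pass (adjusted p = 0.381).

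Eif3d encodes a subunit that can itself bind the cap of certain mRNAs. Its deposited level was 6.42, 5.58 and 5.80 in cultured cells, against 5.44, 5.77 and 5.94 in fresh cells, with overlap and a difference of 0.22 (adjusted p = 0.709). After quantile normalization it was 6.18, 6.23 and 6.14 in cultured cells, against 5.40, 5.57 and 5.74 in fresh cells, a rise of 0.61 (adjusted p = 0.0320). Without cultured replicate 1 the normalized value was again 0.61 and did not pass (adjusted p = 0.0590). The remaining eIF3 subunits lay between -1.46 (Eif3e, adjusted p = 0.204) and 0.02 (Eif3b), and Eif3k, at -1.32, did not overlap on either scale (adjusted p = 0.0838).

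The eEF1 and eEF2 genes gave no call on either scale, and their deposited fold changes lay between -1.90 (Eef1a1) and 0.25 (Eef1a2). Eef1a1, the tRNA-carrying factor, had 13.00, 9.55 and 11.06 in cultured cells, against 13.11, 13.09 and 13.12 in fresh cells. Fresh arrays agreed to within 0.04 while cultured arrays spread over 3.46, with replicate 1 beside the fresh arrays. The difference was -1.90 ± 0.73 (n = 3 each, adjusted p = 0.224) on the deposited values. After quantile normalization Eef1a1 had 12.20, 11.71 and 12.85 in cultured cells, against 12.11, 11.91 and 12.11 in fresh cells, and the difference was 0.21 in the opposite direction (adjusted p = 0.737). Without cultured replicate 1, the deposited value was -2.80 and passed (adjusted p = 0.00198). Eef1a2, the isoform of mature muscle and neurons, had 4.50, 3.82 and 4.04 in cultured cells, against 3.70, 4.13 and 3.78 in fresh cells, a difference of 0.25 with overlap (adjusted p = 0.605).

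Eef2, the translocation factor, had 8.05, 6.57 and 7.38 in cultured cells, against 8.61, 8.78 and 8.84 in fresh cells. No cultured array reached a fresh one on either scale. The difference was -1.41 ± 0.33 (adjusted p = 0.0631) on the deposited values and -0.47 (adjusted p = 0.120) after quantile normalization, and it passed without cultured replicate 1 (-1.77, adjusted p = 0.00238). Eef2k, the kinase that inactivates eEF2, had 3.06, 3.14 and 3.13 in cultured cells, against 3.06, 2.97 and 3.58 in fresh cells, and its cultured mean was within background. Eef1b2, an exchange factor for eEF1A, had a difference of -1.17 that did not pass (adjusted p = 0.169).

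Eef1e1, a scaffold protein of the aminoacyl-tRNA synthetase complex that is named with eEF1, did not pass on either scale. Its deposited level was 7.70, 6.24 and 6.17 in cultured cells, against 6.63, 6.69 and 6.63 in fresh cells, with cultured replicate 1 above and replicates 2 and 3 below the fresh arrays. The difference was 0.05 (adjusted p = 0.962), and 0.69 after quantile normalization without overlap (adjusted p = 0.0805). Eif5a, which relieves stalled ribosomes and carries the amino acid hypusine, had 6.96, 6.22 and 6.16 in cultured cells, against 6.88, 6.59 and 6.66 in fresh cells. Its groups overlapped, with -0.26 on the deposited (adjusted p = 0.622) and 0.39 on the normalized values, and its other probe set gave -0.67. Eif6, which keeps the large ribosomal subunit free, had 5.82, 5.10 and 5.21 in cultured cells, against 5.25, 5.38 and 5.04 in fresh cells, a difference of 0.15 (adjusted p = 0.774).

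The 5 enzymes that methylate eEF1A or eEF2 all had fold changes above 0, and none passed on either scale. Among all genes 43.4% were below 0 on the deposited values and 45.8% after normalization. Their median was 0.21 on the deposited and 0.24 on the normalized values. Eef1akmt1, a lysine methyltransferase of eEF1A, had 6.12, 4.76 and 4.67 in cultured cells, against 4.56, 4.65 and 3.83 in fresh cells. The cultured arrays lay above the fresh ones, replicates 2 and 3 by little, and the difference of 0.83 ± 0.40 was the highest of the 57 (adjusted p = 0.341). Eef2kmt had a difference of 0.31 that did not pass, and Eef1akmt3 was within background in both groups.

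Many factor mRNAs, and those of ribosomal proteins, are known as TOP mRNAs, which begin with a C and a run of pyrimidines and are translated under control of mTORC1. Of 10 factors listed here as TOP mRNAs from general knowledge, 9 were measured: Eef1a1, Eef1b2, Eef1d, Eef2, Eif3a, Eif3e, Eif3f, Eif3h and Eif4b. All 9 had deposited fold changes below 0, with a median of -1.41, and 1 passed the test (Eif3h). Among all genes 43.4% were below 0 and 3.37% fell. The other 48 factors had a median of -0.20. After quantile normalization 6 of the 9 were below 0 and 2 passed (Eif3h and Eif3f), where 45.8% of all genes were below 0 and 4.5% fell. The median of the 9 was then -0.43, against -0.04 for the others. The TOP factors were also bright: their median log2 level was 7.82, 6.09 and 6.59 on the cultured arrays and between 7.88 and 8.41 on the fresh arrays. What brightness contributes to their difference from the other factors was not tested.

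The bases around the annotated start show what a TOP start looks like and how the annotation places it. The windows below are from RefSeq (GRCm38.p6), 15 bases before the start in lower case and the first 15 transcribed bases in capitals. They are of 2 factors whose window begins with C and 4 pyrimidines and of 4 factors at least 2-fold lower on the deposited values. Of those 4, Eif4a2 alone passed the test on either scale.
Eif3f, chr7:108934400-108934429, plus strand: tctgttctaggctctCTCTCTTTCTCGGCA
Eif2s3x, chrX:94212637-94212666, minus strand: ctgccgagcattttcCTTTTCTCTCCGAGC
Eif4a2, chr16:23107453-23107482, plus strand: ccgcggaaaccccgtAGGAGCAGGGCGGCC
Eif4a1, chr11:69672409-69672438, minus strand: acaaagtaacgtcacGTCGAGTTGCAGAGC
Eef2, chr10:81176616-81176645, plus strand: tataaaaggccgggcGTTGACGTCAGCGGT
Eef1a1, chr9:78481710-78481739, minus strand: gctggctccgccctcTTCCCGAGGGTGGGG
A window was available for 44 of the 57 factors. A C followed by 4 pyrimidines stood at the start in 2 of the 44, Eif3f and Eif2s3x (4.55%), against 2.67% of 17491 protein-coding genes. In Eef1a1 pyrimidines lie on both sides of the annotated start, and in Eef2 the capitals begin with G. The search took the annotated first base as given.

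The E-box, the AP-1 element and the cAMP response element were searched in the window of 250 bases before to 50 bases after the start, each of which reads the same on both strands. The letters CACGTG were present in 12 of the 44 factors (27.3%), against 8.91% of protein-coding genes. These were Eef1aknmt, Eef2, Eef2k, Eif1b, Eif3a, Eif3f, Eif3k, Eif4a1, Eif4e, Eif4h, Eif5a and Eif5a2. The AP-1 element TGANTCA was present in 2 (4.55%, against 8.12%), Eif3f and Eif3l, and the cAMP response element TGACGTCA in 1 (2.27%, against 2.54%), Eef2, where it begins at transcribed base 3 and stands within the capitals above. Eif3f is shown in full because its AP-1 element and E-box, in capitals, overlap at 73 and 68 bases before the start.
Eif3f, chr7:108934165-108934414, plus strand: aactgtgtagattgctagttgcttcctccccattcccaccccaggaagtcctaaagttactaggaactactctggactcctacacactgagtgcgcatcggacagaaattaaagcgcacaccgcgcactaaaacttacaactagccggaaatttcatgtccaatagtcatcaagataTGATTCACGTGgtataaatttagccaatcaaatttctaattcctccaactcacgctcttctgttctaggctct
A match is a description of the letters in the window and not evidence of a bound site.

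Among the other translation genes listed, the smallest adjusted p-values lay downstream of eIF2 phosphorylation. Of 10 measured genes of that stress response arm, 3 fell and 1 rose on both scales, where 3.37% of all genes fell and 0.953% rose on the deposited values and 4.5% and 3.5% after normalization. Ppp1r15a, which directs a phosphatase to eIF2α, had 3.94, 4.44 and 4.26 in cultured cells, against 8.07, 8.60 and 8.33 in fresh cells (-4.12 ± 0.19, adjusted p = 2.81e-05). Ddit3, the transcription factor CHOP, fell by 3.03 (adjusted p = 0.000207). Atf4, whose mRNA is preferentially translated when eIF2α is phosphorylated, had 7.08, 6.09 and 6.06 in cultured cells, against 8.54, 8.13 and 8.17 in fresh cells (-1.87, adjusted p = 0.0100). In all 3 the groups were more than 1 log2 unit apart. Asns, the asparagine synthetase that ATF4 is known to induce, went the other way, with 6.67, 5.06 and 5.91 in cultured cells, against 3.85, 3.84 and 3.87 in fresh cells (2.02 ± 0.35, adjusted p = 0.0186). The Atf4 call was lost without cultured replicate 3 (adjusted p = 0.0542) and that of Asns without cultured replicate 3 (0.0907) or any 1 fresh array (0.0688 to 0.0854), and the calls of Ppp1r15a and Ddit3 were kept without any 1 array. The 4 Eif2ak kinases themselves, which phosphorylate eIF2α, gave no call, with fold changes between -0.05 and 0.33.

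**Figure D5:**
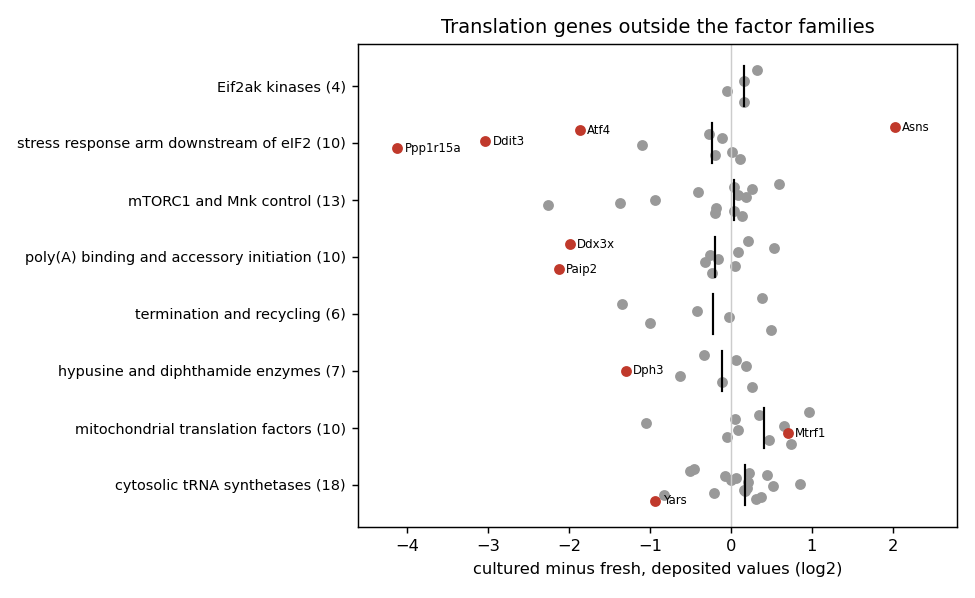
Log2 fold change, cultured minus fresh, on the deposited values of translation genes outside the factor families, by list, with genes past the test at an adjusted p of 0.05 in red, others in grey and a bar at each list's median. Ppp1r15a at -4.12, Ddit3 at -3.03 and Atf4 at -1.87 stand at the low end of the stress response list and Asns at 2.02 at its high end.

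The other lists had 0 to 2 calls each on the deposited values, where 3.37% of all genes fell and 0.953% rose. After quantile normalization the all-gene shares were 4.5% lower and 3.5% higher. Among 10 poly(A)-binding and accessory initiation genes, Paip2, an inhibitor of the poly(A)-binding protein, fell by 2.12 (adjusted p = 0.0333) and Ddx3x, an RNA helicase, fell by 1.99 (adjusted p = 0.0273), and both also passed after quantile normalization, where Denr rose as well (1.05, adjusted p = 0.0405). Among 7 enzymes that make hypusine on eIF5A or diphthamide on eEF2, Dph3 fell by 1.30 (adjusted p = 0.0306), and Dph5 came next at -0.62. None of 13 mTORC1 and Mnk genes passed: Rps6, a ribosomal protein and target of this pathway, differed by -2.25 (adjusted p = 0.180) on the deposited and 0.13 on the normalized values, and Rheb by -1.37 (adjusted p = 0.0976). None of 6 termination and recycling genes passed on the deposited values, and Etf1 and Hbs1l did so after normalization (adjusted p = 0.0423 and 0.0300, lower in culture).

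Fold changes below 0 were found for 2 of 10 mitochondrial translation factors and 6 of 18 cytosolic tRNA synthetases, against 43.4% of all genes. The mitochondrial factors had a median of 0.41, with 1 called on the deposited values, Mtrf1, whose mean was within background in both groups. Gfm1, the mitochondrial elongation factor G1, had 5.79, 4.68 and 4.91 in cultured cells, against 4.28, 4.16 and 4.04 in fresh cells, a difference of 0.97 that passed only after quantile normalization (1.02, adjusted p = 0.0105), as did that of Tufm (0.87, adjusted p = 0.0173). Mrrf, at -1.05, did not pass on either scale. Of 18 cytosolic tRNA synthetases 1 fell on both scales, Yars (-0.93, adjusted p = 0.0369). After normalization Lars and Nars rose (0.97 each, adjusted p = 0.00729 and 0.00268), where 4.5% of all genes fell and 3.5% rose. The calls of Paip2, Ddx3x and Yars on the deposited values were lost without any 1 array other than cultured replicate 1, that of Dph3 without any other than cultured replicate 1 or fresh replicate 1, and that of Mtrf1 without any 1 array. The adjusted p-values of these 5 genes in those fits lay between 0.0501 (Ddx3x) and 0.147 (Mtrf1).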

How the data were processed

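Per the labels' protocols, biotin-labelled RNA of satellite cells was measured on 6 Affymetrix arrays. The deposited values are log2 expression values made by the authors with RMA and the package oligo, per the submitters' processing notes, with no version given. RMA subtracts background, normalizes quantiles and summarises probes, and compresses differences near background. The bright quantiles of the deposited arrays differed all the same, and which step left that difference is not stated. The table holds 35556 probe sets. The platform annotation gives 21789 of them 1 gene and 12146 none, and the 1621 with several genes, 11 of which include a translation factor, were left unnamed. Near-identical processed copies of Eef1a1 and other factors could share probes.

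The test was limma 3.58.1 in R 4.3.3 (lmFit and eBayes, group as the only term, no filter), with Benjamini-Hochberg adjustment over 19938 genes and a threshold of 0.05. It was checked on simulated arrays with independent noise and no brightness difference between arrays, so the check does not cover the difference seen here. The same fit was run after quantile normalization. The factors and lists were chosen with earlier results of these data known. Members named were those past the test on either scale, the 5 lowest and 5 highest fold changes on either, and fixed core factors. Of each other list, those past the test and the 2 largest changes were named, and Denr, Etf1, Hbs1l, Gfm1, Tufm, Lars and Nars also for passing after normalization. Eif1b, Eif1ax, Eif2a, Eif2b4, Eif2s2, Eif2s3x, Eif3b, Eif3e, Eif3k, Eef1b2, Eif4g2 and Eif4g3 were added after their values were seen. The labels do not say whether shared replicate numbers pair arrays, and the arrays were treated as unpaired. Deviations from the group means on arrays of the same number correlated at -0.02, -0.06 and 0.05 over 10684 genes. These deviations also hold the brightness differences between arrays, so the correlations cannot decide whether arrays are paired. Alternatives covered normalization, prior, array weights, filters, probe set choice, a replicate block and each array left out. The number of arrays limits the precision.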

Additional observations from a re-analysis of the deposited data

How the results depend on the processing

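The limits of these results are 3 arrays a group, unequal bright values among the cultured arrays and a bright set of factors. Of all genes, 861 passed on the deposited values (671 lower, 190 higher), 1595 after quantile normalization (897 and 698), 1515 after cyclic loess (1017 and 498), 1742 with array weights and 1779 with quantile normalization without cultured replicate 1, a setting chosen after seeing the data. Leaving out each array gave 448 to 1517. Factors lower in culture numbered 4 as deposited, 9 with array medians centred (4.45% of genes lower), 9 after cyclic loess (5.1%), 13 with array weights (5.8%), 2 with a trended and robust prior (3.35%), 2 with every probe set tested (2.26% of probe sets), 8 of 43 among genes with a mean above 4 (11.4%), 7 of 53 among genes above the receptor percentile (6.53%) and 8 after quantile normalization without cultured replicate 1 (4.7%). Leaving out each array gave 0 to 24: 24 without cultured replicate 1 (6.41% of genes), 3 without cultured replicate 2 (2.64%) and 0 without cultured replicate 3 (1.91%). Without each fresh array it was 1, or 1.75% of factors, against 3.06%, 2.1% and 2.11% of genes without fresh replicates 1, 2 and 3. Without cultured replicate 3 or any 1 fresh array, the factors' share was thus below that of all genes. Factors higher numbered 2 after quantile normalization and 0 in all other settings. The factors' median fold change of -0.53 was -0.0525 after quantile normalization, -0.21 after cyclic loess, -0.11 after quantile normalization without cultured replicate 1 and -0.73 to -0.19 with 1 array left out. Of the fold changes of named genes that passed on the deposited values, 1 reversed: Eif4ebp1 was 0.11 after quantile normalization without cultured replicate 1. Whether shared replicate numbers pair arrays is not known, and a fit with the replicate block called 5 factors and 662 genes. Eif4a2 and Eif1a were each called in 15 of 18 settings, Eif3h in 12, and Eif3f, Eif5 and Eif4ebp1 in 8. The causes of these differences were not tested.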
